A study of Mus musculus with 8 samples.

Results

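The genes described here are 10 of the 52459 gene symbols in the count table, and they were taken by name. They are the D-type cyclins Ccnd1, Ccnd2 and Ccnd3, their kinase partners Cdk4 and Cdk6, the kinase inhibitors Cdkn1b, Cdkn2c and Cdkn2d, and the pocket proteins Rb1 and Rbl1. RNA was sequenced from 8 libraries of splenic AE9a+ leukaemia cells, 1 library for each moribund mouse. AE9a is a truncated RUNX1-RUNX1T1 fusion protein that causes acute myeloid leukaemia in mice. All groups, the controls included, carried the AE9a retrovirus with a doxycycline-inducible hairpin against Tet2 (genotype label RTA shTet2), introduced into cKit+ marrow cells of C57BL/6J mice. Hosts for the primary leukaemia were lethally irradiated C57BL/6J mice aged 6 to 8 weeks, given 50000 AE9a+ cells and 500000 wild-type support marrow cells. Secondary hosts received the same numbers of splenic leukaemia cells and support marrow, and their own strain, age and irradiation are not given separately in the sources used here. Mice 21 and 23 were secondary recipients without doxycycline that had PBS, and their label is Tet2 restored. Secondary recipients 28 and 30 had doxycycline and ascorbate. Mouse 12, the 1 primary recipient, had doxycycline. The controls were 3 secondary recipients with doxycycline and PBS (16, 17 and 19), called PBS knockdown mice here. Removal of doxycycline and restoration of Tet2 cannot be told apart in this design. Ages at harvest, the ascorbate dose and the way AE9a+ cells were separated from other spleen cells are not given in the sources used here.

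D-type cyclins are made in response to growth signals and bind the kinases CDK4 and CDK6 early in the cell cycle. The active pairs phosphorylate the retinoblastoma protein and its relatives, which then release E2F factors to switch on genes of DNA replication. Proteins of the INK4 family, among them those of Cdkn2c (p18) and Cdkn2d (p19), block CDK4 and CDK6 alone, while the CIP/KIP protein of Cdkn1b (p27) also holds back the cyclin E kinase CDK2. Blood progenitors are known to depend chiefly on Ccnd2, Ccnd3 and Cdk6, while Cdkn1b and the INK4 genes help to hold stem cells and maturing cells out of cycle.

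The library totals ran from 18.1 M to 34.2 M counts (M stands for 1e6). The hairpin's target Tet2 had 14.1 and 23.1 CPM off doxycycline, 13.7 and 11.7 CPM under ascorbate, and 9.26 CPM in primary mouse 12, set against 12.6, 12.8 and 13.4 CPM for mice 16, 17 and 19. CPM are counts per 1e6 counts of library totals scaled by the TMM method. Mouse 21 thus stood just above the PBS knockdown mice in uncorrected CPM, and mouse 23 stood further above them. Off doxycycline the log2 fold change of Tet2 was 0.52 (SE 0.24, edgeR adjusted p 0.181). It was 0.84 (edgeR adjusted p 0.0410) without mouse 21 and 0.12 (0.820) without mouse 23. With an offset for transcript length and GC content it was 0.99 (SE 0.26, edgeR adjusted p 0.0744). The mitochondrial share of counts reached 14.5% for mouse 23 and 17.1% for mouse 28, while the controls had 9.09% to 11.4%. Each library's difference from the other PBS knockdown libraries was also set against transcript length. The rank correlation across genes, a description only, was −0.44 and −0.27 for mice 21 and 23 and −0.29 and −0.12 for mice 28 and 30. For mouse 12 it was 0.29, and the controls 16, 17 and 19 had 0.35, −0.33 and −0.058. Values with an offset for length and GC content are therefore given for most of the estimates that they move.

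Among the 3 D-type cyclins the leukaemia cells carried chiefly Ccnd2. On the per-length scale of the deposited FPKM (fragments per kilobase of transcript, scaled to depth), the mean levels in the PBS knockdown mice ran from Cdk4 at 101 ± 10.5 and Ccnd2 at 84.9 ± 10.9 down to Cdkn2d at 19.3 (13.9 to 23.0) and Ccnd1 at 0.047 ± 0.021 (SD, n = 3). In between stood Cdk6 at 47.5, Ccnd3 at 36.1, Cdkn2c at 32.5, Rb1 at 23.4, Cdkn1b at 21.1 and Rbl1 at 19.8 FPKM. Cdk4 and Ccnd2 overlapped in range, Ccnd2 stood clear of Cdk6, and Cdkn2c stood clear of Rb1. The ranges of Rb1, Cdkn1b and Rbl1 each overlapped that of the next gene, and Cdkn2d stood clear of Ccnd1. Under ascorbate Cdkn2d took rank 3 among the 10 FPKM levels at 46.0 ± 0.651, with Cdkn1b behind it at 39.2 ± 6.67 (n = 2). Off doxycycline Cdkn2d took rank 4 at 35.7 ± 0.969 FPKM, in a run of overlapping ranges with Ccnd3, Cdkn2c and Cdk6. In the primary mouse, as in the mean of the PBS knockdown mice, Cdkn2d had the lowest FPKM of the 10 genes but for Ccnd1.

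**Figure D1:**
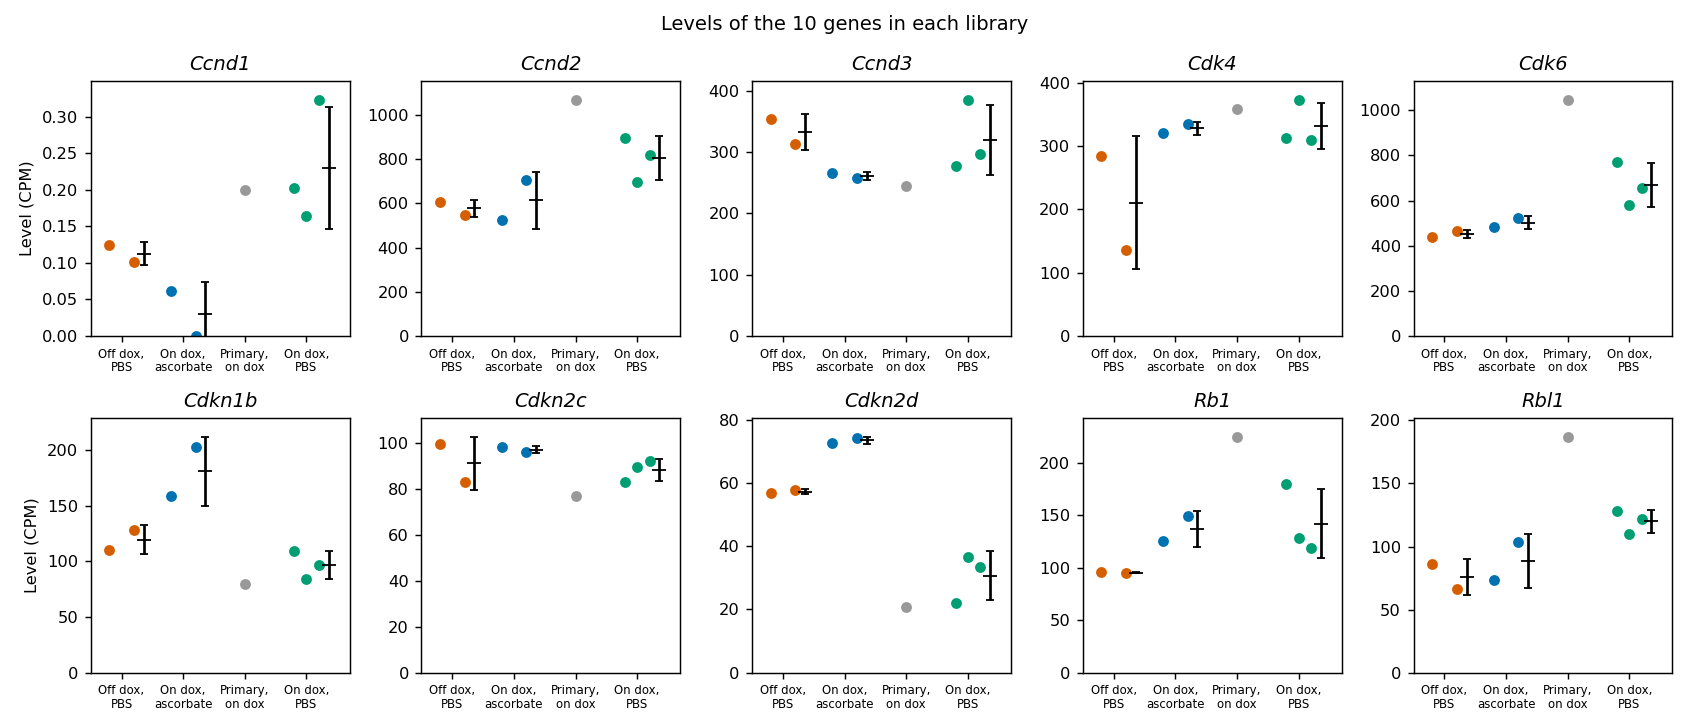
Level of each of the 10 genes in every library (CPM on TMM-scaled totals, linear axes from 0). Points are mice and bars are mean ± SD where a group has 2 or 3 mice. Cdkn2d in all 4 treated secondary mice (56.8 to 74.4 CPM) lies above the PBS knockdown mice (22.0 to 36.6 CPM).

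The inhibitors Cdkn2d and Cdkn1b rose under ascorbate, and these were the 2 genes of the 9 tested that passed in that comparison. Across the transcriptome 1.09% of 12137 genes tested rose under ascorbate and 2.86% changed in either direction. The 9 had a median log2 fold change of −0.062, against −0.012 for all genes tested. Ccnd1 did not pass the filter on low counts. Fewer cells of a type and less RNA in each cell cannot be told apart in these bulk libraries.

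Cdkn2d, which encodes the INK4 inhibitor p19 (chromosome 9, 21288410 to 21291407, GRCm38, minus strand), was at 72.7 and 74.4 CPM in the ascorbate mice, against 22.0, 36.6 and 33.5 CPM in control mice 16, 17 and 19. Both ascorbate mice were thus above all 3 controls, mouse 16 was the lowest control, and the groups did not overlap. The fitted log2 fold change of Cdkn2d was 1.25, with an SE of 0.21 and an edgeR adjusted p of 0.0291. It stayed between 1.06 and 1.39 under 18 alternatives, 14 of which called it. The call was lost without mouse 16 (edgeR adjusted p 0.0694), mouse 19 (0.0741), mouse 28 (0.132) or mouse 30 (0.126). Off doxycycline Cdkn2d was at 56.8 and 57.8 CPM in mice 21 and 23, again clear of the same 3 control mice. Its log2 fold change there was 0.90 (SE 0.21, edgeR adjusted p 0.0541) and 0.59 with the length and GC offset, while the Wald test of DESeq2 gave 0.90 with an adjusted p of 0.00304. The primary mouse on doxycycline had 20.7 CPM, just below the lowest PBS knockdown mouse.

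Cdkn1b (p27; chromosome 6, 134920401 to 134925513, plus strand) was at 159 and 203 CPM under ascorbate, against 109, 84.0 and 97.0 CPM in control mice 16, 17 and 19. The lower ascorbate mouse, 28, still lay above the highest control. Cdkn1b rose by 0.89 on the log2 scale (SE 0.18, edgeR adjusted p 0.0392), or by 1.13 with the length and GC offset (0.0131). The call was lost on library totals (edgeR adjusted p 0.0526), and it was lost without mouse 16, 17, 19, 28 or 30, with adjusted p-values of 0.101, 0.0765, 0.119, 0.119 and 0.159 in that order. Off doxycycline the level was 110 and 128 CPM, so mouse 21 stood only just above control mouse 16. The log2 fold change there was 0.30 (SE 0.18, edgeR adjusted p 0.287), or 0.50 with the offset. The primary mouse had 79.7 CPM.

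Promoter windows of these 2 genes are shown because they are the genes that passed. Each line gives the 250 bases before the RefSeq start (GRCm38.p6), 5′ to 3′ on the gene's strand, with matches to the GC box GGGCGG and to CCAAT on either strand in capitals. The Cdkn2d window is chr9:21291210-21291459 (minus strand) and the Cdkn1b window is chr6:134920151-134920400 (plus strand).
Cdkn2d: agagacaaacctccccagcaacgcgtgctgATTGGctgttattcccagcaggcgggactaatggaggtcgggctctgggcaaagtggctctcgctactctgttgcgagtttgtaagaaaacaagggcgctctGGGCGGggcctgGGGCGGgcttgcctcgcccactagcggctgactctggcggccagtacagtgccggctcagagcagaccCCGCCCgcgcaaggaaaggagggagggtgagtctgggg
Cdkn1b: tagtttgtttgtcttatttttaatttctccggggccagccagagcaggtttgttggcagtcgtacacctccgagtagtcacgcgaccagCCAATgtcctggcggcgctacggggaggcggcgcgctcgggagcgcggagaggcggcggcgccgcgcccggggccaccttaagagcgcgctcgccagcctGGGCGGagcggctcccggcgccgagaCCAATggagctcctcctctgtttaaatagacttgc
Cdkn2d had 3 GC box matches and 1 CCAAT match, and Cdkn1b had 1 and 2. GGGCGG was found in 32.7% and CCAAT in 33.8% of 32851 promoter windows of this length, so neither is rare. The GENCODE model of Cdkn2d reaches to 21291407, inside the window shown.

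Cdkn2c, the INK4 inhibitor p18, spanned 76.7 to 99.3 CPM over all 8 libraries. It was at 99.3 and 83.0 CPM off doxycycline, at 97.9 and 95.8 CPM under ascorbate, at 76.7 CPM in the primary mouse, with 82.8, 89.4 and 92.1 CPM in the PBS knockdown controls. The log2 fold changes were 0.047 (SE 0.15) off doxycycline and 0.13 (SE 0.15) under ascorbate, with edgeR adjusted p-values of 0.857 and 0.624. With the length and GC offset both turned below 0, to −0.21 and −0.028. The INK4 genes Cdkn2c and Cdkn2d thus gave unlike values: Cdkn2d made up 49.4% and 54.3% of the summed FPKM of this pair off doxycycline and 55.9% and 57.0% under ascorbate, against 31.2%, 41.1% and 38.3% in the PBS knockdown mice.

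Of 4 further inhibitors, 3 passed the filter in the secondary libraries and 0 of them were called by edgeR in any comparison. The share of all genes called ran from 0% off doxycycline to 2.86% under ascorbate. Cdkn1a (p21, a p53 target) was at 40.9 and 49.6 CPM off doxycycline, at 36.2 and 40.0 CPM under ascorbate and at 34.5 to 48.0 CPM in the PBS knockdown mice, all within one range. Cdkn1c (p57, an inhibitor of resting stem cells) stayed low at 2.43 and 2.42 CPM off doxycycline and 2.81 and 1.97 CPM under ascorbate, against 1.03 to 1.51 CPM in the PBS knockdown mice. Cdkn2b (p15) had 2 and 3 counts in the ascorbate mice, against 39, 11 and 11 counts in the PBS knockdown mice 16, 17 and 19. Its log2 fold change of −2.66 (SE 0.85) had an edgeR adjusted p of 0.110. Cdkn2a (p16 and p19ARF) had 34 counts in mouse 28 and 1 to 7 counts in each other secondary library.

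Skp2, the ubiquitin ligase subunit that targets p27 for breakdown, is described here although it did not pass, and it was chosen after its values were seen. It was at 5.68 and 10.4 CPM under ascorbate, against 24.6, 17.5 and 22.6 CPM in the PBS knockdown mice, a log2 fold change of −1.43 (SE 0.33, edgeR adjusted p 0.0516). Off doxycycline it was at 12.0 and 7.27 CPM (−1.17, SE 0.32, edgeR adjusted p 0.0670). All 4 treated mice were below all 3 controls in this level. The primary mouse, at 29.5 CPM, was above them. Skp2 is 1 of 12 listed genes that fold, tag or break down cyclins and inhibitors. The list medians were −0.022 under ascorbate and −0.10 off doxycycline. Cks1b, also on that list, had 0.15 (SE 0.19, edgeR adjusted p 0.670) under ascorbate and 0.043 (SE 0.19, edgeR adjusted p 0.904) off doxycycline. The part of Skp2 in the level of p27 was not tested.

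**Figure D2:**
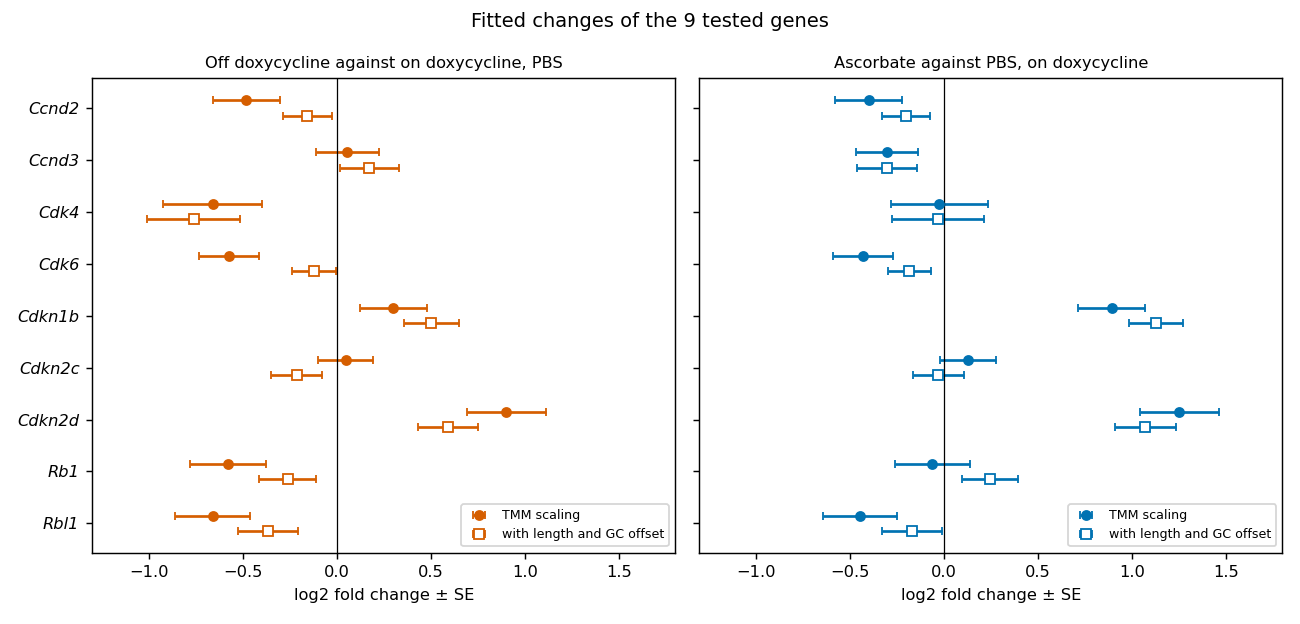
Fitted log2 fold changes (edgeR) with their standard errors for the 9 genes that passed the filter, off against on doxycycline (left) and ascorbate against PBS (right). Filled circles use TMM scaling and open squares add an offset for transcript length and GC content: Cdk6 off doxycycline stands at −0.57 and −0.12, while Cdkn2d under ascorbate stands at 1.25 and 1.07.

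Ccnd2, the main D-type cyclin of these cells, was at 605 and 549 CPM in mice 21 and 23 off doxycycline, at 522 and 705 CPM under ascorbate (mice 28 and 30), and at 898, 698 and 818 CPM in control mice 16, 17 and 19. The mice off doxycycline lay below all 3 controls, while ascorbate mouse 30 lay inside the control range. Its log2 fold changes of −0.48 (SE 0.18) off doxycycline and −0.40 (SE 0.18) under ascorbate did not pass, with edgeR adjusted p-values of 0.115 and 0.209. They were −0.16 and −0.20 with the length and GC offset. The primary mouse had the highest level of all 8 libraries, 1068 CPM.

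Ccnd3, the D-type cyclin known for its part in lymphoid and erythroid growth, was at 353 and 312 CPM off doxycycline, inside the PBS knockdown range of 277 to 385 CPM. Under ascorbate it was at 265 and 257 CPM, just below that range. The log2 fold changes were 0.057 (SE 0.17, edgeR adjusted p 0.846) and −0.30 (SE 0.17, edgeR adjusted p 0.299) in that order. The first of these turned to −0.031 without mouse 16 and to −0.027 without mouse 21. Ccnd1, the cyclin of many epithelial and stromal cells, had 3 and 2 counts off doxycycline, 1 and 0 counts under ascorbate, 7 in the primary mouse, and 5, 4 and 9 in the PBS knockdown mice. The highest of these is 0.323 CPM (95% Poisson interval 0.148 to 0.613), and the count of 0 in mouse 30 allows up to 0.125 CPM, the level of 3 counts in that library. These limits cover counting error only. With no filter on low counts its log2 fold change was −2.95 under ascorbate (SE 1.36, edgeR adjusted p 0.224). Off doxycycline it was −1.02 in that fit (SE 1.04, edgeR adjusted p 0.656). Neither difference in Ccnd1 passed at this depth.

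Cdk4 parted the mice off doxycycline from each other. Its level was 285 CPM in mouse 21 and 136 CPM in mouse 23, against 313, 373 and 309 CPM in control mice 16, 17 and 19. Mouse 23 was far below every other library. Under ascorbate Cdk4 stood at 321 and 335 CPM, inside the control range, and the primary mouse had 359 CPM. Off doxycycline the estimate for Cdk4 was −0.66 on the log2 scale (SE 0.26, edgeR adjusted p 0.136). This became −1.28 without mouse 21 and −0.23 without mouse 23, so the size rests on 1 library, that of mouse 23. Its mitochondrial share was 14.5%, while mouse 28 had 17.1% and Cdk4 at 321 CPM. The part of this share in the Cdk4 level was not tested. Under ascorbate the estimate for Cdk4 was −0.025 (SE 0.26, edgeR adjusted p 0.962), and it turned to 0.031 with limma voom. Cdk4 shares 641 exonic bases with Tspan31 on the other strand, and without a stated strand setting reads of this pair cannot be told apart. Tspan31 itself was at 89.2 and 51.9 CPM off doxycycline, against 78.9 to 90.6 CPM in the PBS knockdown mice, so it too was lowest in mouse 23. The same limit holds for Ccnd1 (1100 exonic bases shared with LTO1, a symbol not matched in the count table), Ccnd3 (361 exonic bases shared with Bysl), Rb1 (488 with Rcbtb2 and 408 with Lpar6), and for antisense loci across 368 bases of Cdk6 and 372 and 368 bases of Ccnd2.

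The promoter of Cdk4 is shown because of its E-boxes, the sites bound by MYC and its partner MAX. The 250 bases before its RefSeq start are chr10:127063285-127063534 (plus strand, GRCm38.p6), with the E-box CACGTG, which reads the same on both strands, in capitals.
Cdk4: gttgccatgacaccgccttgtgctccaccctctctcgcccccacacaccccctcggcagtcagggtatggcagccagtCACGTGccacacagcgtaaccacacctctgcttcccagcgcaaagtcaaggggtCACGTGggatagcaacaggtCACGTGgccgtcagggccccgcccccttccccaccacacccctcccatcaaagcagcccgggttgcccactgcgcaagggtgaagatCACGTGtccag
CACGTG occurs 4 times in this window. Of 32851 windows of the same length, 6.02% held it at least 1 time and 7 windows (0.0213%) held it 4 or more times. The motif was chosen with this window in view and the limit of 4 is its own count, so these shares are a description only. Cdk6 had 1 match, and the windows of Rbl1, Cdkn1b, Cdkn2c, Cdkn2d and Ccnd3 had 0.

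Myc, a known activator of Cdk4 and Ccnd2, was at 386 and 217 CPM in mice 21 and 23, at 182 and 154 CPM under ascorbate, at 244 CPM in the primary mouse, with 351, 341 and 423 CPM in the PBS knockdown controls. Under ascorbate Myc fell, with a log2 fold change of −1.16 (SE 0.24, edgeR adjusted p 0.0414), a call lost without mouse 16, 17, 19, 28 or 30 (adjusted p 0.0661 to 0.163). The ascorbate mice thus had the lowest Myc levels of the 8 libraries beside Cdk4 levels within the control range. Mouse 23 had low values of both genes. In the primary mouse Ccnd2 was highest while Myc stood below all 3 PBS knockdown mice. The levels of these 3 genes did not follow 1 order across the libraries, and the part of Myc in Cdk4 and Ccnd2 was not tested.

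**Figure D3:**
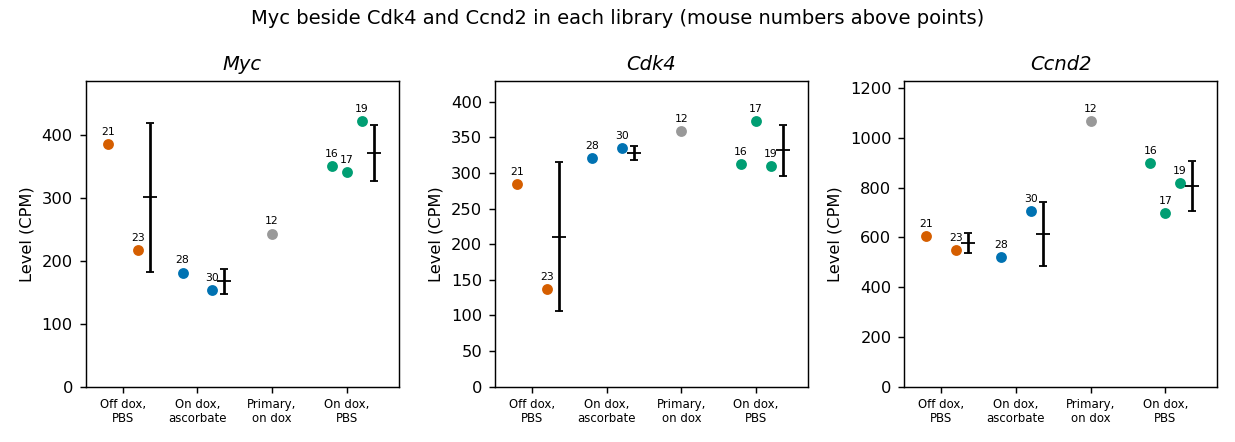
Levels of Myc, Cdk4 and Ccnd2 in each library (CPM, linear axes from 0), with mouse numbers above the points and mean ± SD where a group has 2 or 3 mice. Ascorbate mice 28 and 30 have the lowest Myc (182 and 154 CPM) and Cdk4 of 321 and 335 CPM, and mouse 23 has the lowest Cdk4 (136 CPM).

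Cdk6, the D-type cyclin kinase most used by blood progenitors, was at 440 and 464 CPM off doxycycline and at 481 and 522 CPM under ascorbate, against 773, 581 and 657 CPM in control mice 16, 17 and 19. All 4 treated mice were below all 3 controls, and the primary mouse stood above them at 1046 CPM. The log2 fold changes were −0.57 (SE 0.16, edgeR adjusted p 0.0671) and −0.43 (SE 0.16, edgeR adjusted p 0.147). They were −0.12 and −0.18 with the length and GC offset. The exonic length of Cdk6 in GENCODE is 13989 bases, the longest of the 10, and that of Cdkn2d is 1574 bases, the shortest.

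Of the pocket proteins, Rb1, the retinoblastoma protein, was at 95.8 and 94.6 CPM off doxycycline, at 125 and 149 CPM under ascorbate, at 225 CPM in the primary mouse and at 179, 128 and 119 CPM in control mice 16, 17 and 19. The mice off doxycycline were below all 3 controls, and the ascorbate mice lay within their range. The log2 fold changes were −0.58 (SE 0.20, edgeR adjusted p 0.102) and −0.062 (SE 0.20, edgeR adjusted p 0.874). With the length and GC offset they were −0.26 and 0.25, so the sign under ascorbate turned. Rbl1, the related p107, was at 86.1 and 65.9 CPM off doxycycline, at 73.5 and 104 CPM under ascorbate, at 187 CPM in the primary mouse, with 128, 110 and 122 CPM in the PBS knockdown controls. All 4 treated mice were below the controls. The log2 fold changes were −0.66 (SE 0.20, edgeR adjusted p 0.0776) and −0.44 (SE 0.20, edgeR adjusted p 0.211), or −0.37 and −0.17 with the offset. Without mouse 21 the first was −0.86 (edgeR adjusted p 0.0482).

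Rbl1 is itself a classical E2F target, and its promoter window is shown for that reason. It is chr2:157204535-157204784 (minus strand, GRCm38.p6), with the E2F-type sequence TTTCGCGC, searched on both strands, in capitals.
Rbl1: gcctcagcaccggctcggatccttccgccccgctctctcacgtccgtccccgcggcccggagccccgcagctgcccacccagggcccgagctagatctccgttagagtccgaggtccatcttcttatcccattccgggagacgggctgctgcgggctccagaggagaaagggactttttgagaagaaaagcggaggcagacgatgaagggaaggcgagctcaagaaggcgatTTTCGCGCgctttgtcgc
The 8 letters occurred 1 time in this window, in 0 of the other members' windows and in 84 of 32851 windows (0.256%). They were chosen with this window in view, so this share too is a description only.

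Off doxycycline the 9 genes had a median log2 fold change of −0.48, against −0.0020 for all 12137 genes tested, and −0.16 with the length and GC offset. By edgeR 0 of the 9 and 0% of all genes passed. Unadjusted, 6 of these had a p under 0.05, beside 29.2% of all genes. Without mouse 23 the median was −0.23 and 2 of the 9 had an unadjusted p under 0.05. DESeq2 called 4 of the 9, beside 16.1% of all genes. They were Cdkn2d, higher (6.74% of all genes), and Cdk6, Rb1 and Rbl1, lower (9.34%). By edgeR without mouse 21 the count was 2 (Cdk4 and Rbl1, both lower), beside 13.3%, and with no filter on low counts it was 5 of 10, beside 9.71%. Ranges of the 2 groups did not overlap for 7 of the 9 genes, beside 49.4% of all genes tested. Under ascorbate that count was 6 of 9, beside 45.9%, and 5 of the 9 had an unadjusted p under 0.05, beside 23.6%. With the length and GC offset the unadjusted count was 4 of 9 off doxycycline, beside 3262 of 12137 genes. Under ascorbate it was then 2 of 9, beside 3067 of 12137. Without control mouse 16, 17 or 19 the ascorbate count was 2, 5 or 3, beside 1994 of 12046, 2854 of 12051 and 2017 of 11997 genes. Both comparisons share the 3 PBS knockdown mice, so their values are not independent.

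Ratios within a library cancel its scaling factor. The summed FPKM of the inhibitors Cdkn1b, Cdkn2c and Cdkn2d, divided by that of the 3 D-type cyclins, was 0.930 and 1.02 off doxycycline, 1.37 and 1.22 under ascorbate, 0.419 in the primary mouse, and 0.541, 0.635 and 0.636 in the PBS knockdown mice. All 4 treated mice were above all 3 controls, and the primary mouse was below them. The means were 0.975 ± 0.0638 (SD, n = 2), 1.30 ± 0.104 (n = 2) and 0.604 ± 0.0545 (n = 3) off doxycycline, under ascorbate and under PBS knockdown. An exact two-sided permutation test gave a p of 0.2 in both arms. With 2 libraries against 3 such a test cannot reach 0.05, so it decides nothing here. The inhibitors have 1574 to 4552 exonic bases and the cyclins 4709 to 9409, and the part of the length trend in this ratio was not tested. Against the kinases Cdk4 and Cdk6 the same inhibitor sum stood at 0.817 and 1.28 off doxycycline and at 0.882 and 0.907 under ascorbate, against 0.454 to 0.541 in the PBS knockdown mice.

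Ccnd2 made up 61.5% and 62.1% of D-type cyclin FPKM off doxycycline, 64.7% and 71.9% under ascorbate, 80.2% in the primary mouse and 75.1%, 62.8% and 71.9% in the PBS knockdown mice. Mouse 17 was close to the mice off doxycycline in this share. Cdk6 made up 26.4% and 44.1% of the summed Cdk4 and Cdk6 FPKM in mice 21 and 23, 25.8% and 26.5% under ascorbate, and 26.5% to 36.4% in the PBS knockdown mice. Mouse 23, with its low Cdk4, had the highest Cdk6 share of the 8 libraries.

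**Figure D4:**
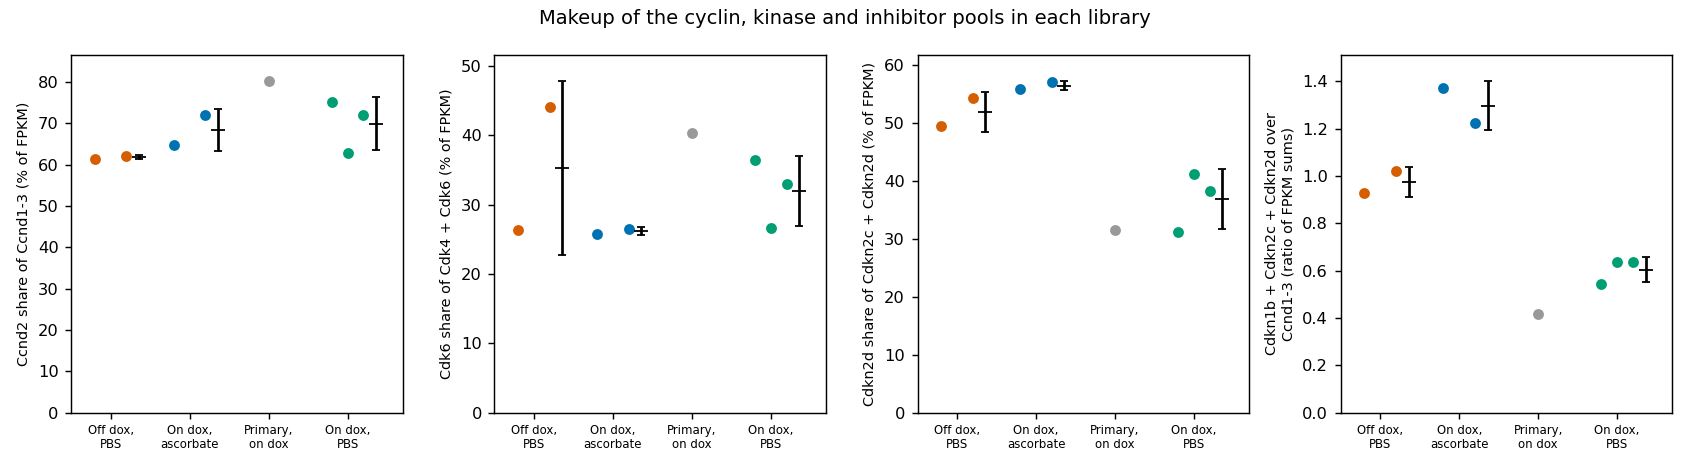
Makeup of the cyclin, kinase and INK4 pools and the ratio of inhibitors to D-type cyclins in each library, from deposited FPKM (axes from 0, bars are mean ± SD). The inhibitor to cyclin ratio is 0.930 to 1.37 in the 4 treated secondary mice and 0.541 to 0.636 in the PBS knockdown mice.

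The treated arms were also set against each other, mice off doxycycline over ascorbate mice. By edgeR 0 of the 9 genes passed, beside 0.00824% of all genes tested, and 2 of the 9 had an unadjusted p under 0.05, beside 16.2%. With the length and GC offset 0 of the 9 passed, beside 3 of 12137 genes. Unadjusted, 5 of the 9 then had a p under 0.05, beside 2280 of 12137. These were Cdkn1b (−0.63), Cdkn2d (−0.48), Cdk4 (−0.73), Rb1 (−0.51) and Ccnd3 (0.47), as log2 fold changes with the offset. The CPM ranges did not overlap for 6 of the 9, beside 44.8%. Cdkn1b had a log2 fold change of −0.59 (SE 0.20, edgeR adjusted p 0.215) and Cdkn2d −0.35 (SE 0.23, 0.485). Both were thus estimated lower off doxycycline than under ascorbate, without passing. Cdk4 had −0.63 (SE 0.28, edgeR adjusted p 0.312), which became −1.26 (0.0744) without mouse 21 and −0.20 (0.671) without mouse 23. Rb1 had −0.52 (SE 0.22, edgeR adjusted p 0.286) and Ccnd3 0.36 (SE 0.18, 0.358). That Cdkn1b and Cdkn2d passed in 1 arm is therefore not shown to be a difference between the arms.

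The primary mouse was set against the PBS knockdown mice in a fit of all 8 libraries, on the assumption that a single mouse varies as the others do. By edgeR 0 of the 9 genes passed, beside 0.115% of 13024 genes tested, 3 had an unadjusted p under 0.05 (9.08% of all genes), and DESeq2 called 0, beside 1.7%. Estimates were highest for Rb1 (0.66, SE 0.24), Rbl1 (0.64, SE 0.23) and Cdk6 (0.64, SE 0.19), and lowest for Cdkn2d (−0.57, SE 0.28). With the length and GC offset they were 0.49 for Rb1, 0.46 for Rbl1, 0.33 for Cdk6 and −0.30 for Cdkn2d, and the lowest were then Cdkn1b at −0.41 and Ccnd3 at −0.38. That offset also moved Ccnd2 to 0.20, against 0.41 without it. The smallest edgeR adjusted p among the 9 was 0.296. The level lay above the range of the PBS knockdown mice for Ccnd2, Cdk6, Rb1 and Rbl1 and below it for Ccnd3, Cdkn1b, Cdkn2c and Cdkn2d, which is 8 of the 9 genes, beside 61.6% of all genes.

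Markers of other cell types moved beside these genes, and their part in the results was not tested. Over all 12137 genes tested, edgeR called 132 higher (1.09%) and 215 lower under ascorbate. The summed level of 14 macrophage genes was 15.7 to 39.5 CPM off doxycycline, 30.4 to 30.5 CPM under ascorbate, 26.6 CPM in the primary mouse and 44.7 to 86.7 CPM in the PBS knockdown mice, with 3 of 12 tested lower under ascorbate. That of 10 mast cell and basophil genes was 1119 to 1371, 775 to 1068, 1381 and 448 to 602 CPM in the same order of groups, with 1 of 8 tested higher under ascorbate and Tpsb2 at 0 in all secondary groups. Marco, a macrophage gene, was at 0 under ascorbate and in the primary mouse. The 10 erythroid genes summed to 7499 to 11254 CPM, 5727 to 10449 CPM, 4568 CPM and 5558 to 12907 CPM, so the treated groups overlapped the controls. Megakaryocyte genes summed to 68.5 to 81.2, 31.5 to 36.1, 78.3 and 56.9 to 65.0 CPM, with 1 of 3 tested lower under ascorbate. Neutrophil genes summed to 6.93 to 12.0, 8.43 to 13.3, 43.8 and 1.94 to 9.24 CPM, so the primary mouse was the highest. B cell genes summed to 12.8 to 27.8, 12.4 to 21.8, 87.9 and 25.7 to 29.9 CPM, again with the primary mouse highest. Sums for the T and NK cell and stromal lists were at most 40.9 CPM in every library, with Ppbp, Col3a1, Pdgfra and Pdgfrb at 0 in all groups. The genes listed for leukaemic progenitors were Kit, Cd34, Runx1t1, Myb and Mpo. They summed to 499 to 581, 427 to 467, 869 and 439 to 681 CPM. Whether these genes mark the AE9a+ cells alone was not tested.

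The partners of these genes along the pathway were taken from 6 lists, and by edgeR 0 of their genes passed in any of the 4 comparisons. Over all genes tested 0% passed off doxycycline, 2.86% under ascorbate, 0.00824% between the arms and 0.115% for the primary mouse. Off doxycycline 24 of 26 E2F target genes had estimates below 0 with a median of −0.38, while under ascorbate 17 of 26 did with a median of −0.056. The medians over all genes tested were −0.0020 and −0.012. Of the other pocket protein and E2F genes, 10 of 11 had estimates below 0 off doxycycline (median −0.46) and 8 of 11 under ascorbate (median −0.19). A further list held the cyclin E, cyclin A and CDK2 genes together with Cdc25a, Cdk7, Ccnh and Mnat1. Of its tested genes, 7 of 8 and 6 of 8 were below 0, with medians of −0.31 and −0.29. Cdk2 and Mnat1 were the 2 above 0 under ascorbate, at 0.50 and 0.32. MuvB complex genes, which act with Rbl1 in silencing cell cycle genes, had medians of −0.26 and 0.087 over 7 genes, and 12 genes that fold, tag or break down cyclins and inhibitors had medians of −0.10 and −0.022. All of these list medians are on TMM scaling, and none was taken with the length and GC offset or with a library left out. For the 9 genes themselves the median off doxycycline was −0.48, but −0.16 with that offset and −0.23 without mouse 23. The part of the length trend in the list medians was not tested. Ccna1 had 0 counts in all 8 libraries.

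The genes nearest in pattern were sought over all 8 libraries as those with the smallest root mean square (RMS) difference in centred log2 CPM among 13024 genes. For Ccnd2, whose own RMS deviation was 0.33, they were Ctcf (0.054), Dip2c (0.054) and Mon2 (0.057). For Cdk6, with an RMS deviation of 0.40, they were Itsn2 (0.069), Tmed8 (0.077) and Strn3 (0.078). For Ccnd3, with 0.21, they were Sac3d1 (0.062), Ube2s (0.067) and Scaf1 (0.072). The sets share no gene, and the libraries' depth and length trends enter all of these distances.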

How the data were processed

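Raw counts per gene symbol (whole numbers, not normalized) and FPKM values rounded to hundredths were deposited by the authors for 8 libraries. STAR, featureCounts and DESeq2 on mm10 (GRCm38) are named in the submitters' processing notes, without versions, settings or strand. The library factors in the deposited FPKM matched DESeq2 size factors. Genes were tested mainly with edgeR 4.0.16 in R 4.3.3 (glmQLFit and glmQLFTest, a quasi-likelihood test) with TMM factors, a minimum count of 10 in its expression filter and Benjamini-Hochberg adjustment over all genes tested, threshold 0.05. The 7 secondary libraries were fitted together in 3 groups, and the primary library in a fit of all 8. SE is that of the log2 fold change. The fit was also run on simulated data with a single spread for all genes. The changes simulated were larger than any estimate for the members, so that run does not show how well smaller changes are found. Alternatives used DESeq2 1.42.0, limma 3.58.1, other scalings and filters, FPKM, a length and GC offset (mgcv), other sample sets and each library left out. Coordinates are those of GENCODE M21 and promoters those of RefSeq, matched by symbol for 7 of the 10 genes (not Ccnd1, Ccnd2 or Rb1). The members and lists were chosen with earlier results of these data known, and the promoter motifs with these windows in view. All 10 members are named, Tet2 is named as the target and Myc as a known regulator. Other pathway genes were to be named only past the threshold. The further inhibitors, Skp2, Cks1b, Cdk2 and Mnat1 were added after their values were seen. Nearest patterns were sought for Ccnd1, Ccnd2, Ccnd3 and Cdk6 only, of which Ccnd1 failed the filter. Each library is a separate mouse by its title. Totals per library were 18.1 M to 34.2 M counts, and Poisson intervals cover counting error only.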

Additional observations from a re-analysis of the deposited data

How the results depend on the processing

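The number of the 9 genes called was 0 off doxycycline and moved to 4 with the Wald test of DESeq2 and to 5 of 10 without a filter on low counts. It ran from 0 to 2 as each library was left out. Under ascorbate it was 2, fell to 1 on library totals, and ran from 0 to 2 as each library was left out. Between the arms and for the primary mouse it was 0 in every alternative run. Of 639 alternative estimates of the 9 genes, 619 kept their direction. With the length and GC offset Cdkn2c turned to −0.21 off doxycycline, −0.028 under ascorbate and 0.041 in the primary mouse, Rb1 to 0.25 and Tet2 to 0.19 under ascorbate, and Ccnd2 and Cdk6 to 0.044 and 0.062 between the arms. With limma voom Cdk4 and Rb1 turned to 0.031 and 0.093 under ascorbate, and on library totals Ccnd2 and Cdkn2c to 0.030 and 0.041 between the arms. With single libraries left out, estimates off doxycycline ran from −0.031 to 0.21 (Ccnd3), −0.081 to 0.16 (Cdkn2c) and −0.77 to 0.045 (Myc). Under ascorbate they ran from −0.075 to 0.062 (Cdk4), −0.20 to 0.15 (Rb1) and −0.15 to 0.072 (Tet2), and between the arms from −0.29 to 0.16 (Ccnd2), −0.22 to 0.036 (Cdkn2c) and −0.45 to 0.060 (Rbl1). The difference in Ccnd2 share, ascorbate minus PBS knockdown, ran from −5.22 to 1.97 percentage points, and that in Cdk6 share, off doxycycline minus PBS knockdown, from −5.61 to 12.1. The cause of these turns was not tested. Over all genes, calls under ascorbate ran from 2 to 1498 across the alternatives. The main 132 higher and 215 lower became 83 and 300 on library totals, which shift the median of all genes to −0.12, and 287 and 285 with the length and GC offset. Off doxycycline the 0 calls became 1951 with DESeq2, 2207 without a filter, 287 with a minimum count of 30, 367 with DESeq2 size factors and 1692 without mouse 21. No paired analysis was possible because the groups share no mouse or replicate number. Groups of 2 or 3 mice limit the precision, and depth limits Ccnd1, with 9 counts or fewer in every library.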
